A study of Mus musculus with 12 samples.

Results

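Transcripts of cardiomyocytes from mdx:Utrn+/- mice, which have lost a copy of Utrn on top of the mdx mutation, were set against those of mdx cardiomyocytes, both from animals given saline. The comparison takes 6 of the 12 libraries of the series, 3 mdx:Utrn+/- saline libraries against 3 mdx saline libraries. It covers the 12798 of 18530 genes in the deposited table that reached 1 TPM, a level per transcript length scaled to a fixed total, in at least 3 of the 12 libraries. Utrn, the gene whose copy number sets the groups apart, marks the comparison.

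Utrophin, the product of Utrn, is the autosomal relative of dystrophin. Both proteins tie cortical actin to the membrane complex of dystroglycan, sarcoglycans and their partners, which links the muscle cell to laminin outside it. The mdx mouse lacks full-length dystrophin because of a premature stop codon in Dmd. In mdx heart and skeletal muscle utrophin takes over part of dystrophin's place at the membrane, and loss of utrophin on the mdx background is known to worsen the disease.

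All 4 groups of the series carry the mdx allele, so full-length dystrophin is missing from all of them. The mdx:Utrn+/- saline and mdx saline groups were injected with saline on alternate days between week 4 and week 12 of age, and hearts were taken at week 14. The other 6 libraries, 3 per genotype, came from animals given PB1046, a long-acting analog of vasoactive intestinal peptide, on the same schedule and labelled as the high dose. They entered the fit to estimate the spread, and they hold the same genotype comparison in 6 other libraries. The Utrn allele is a whole-animal loss of a copy, not a loss in cardiomyocytes alone. The labels give no sex or litter and do not state that each library is an animal of its own, so p-values measure the spread between libraries, which may in part be technical. Poly-A RNA from frozen pellets of isolated cardiomyocytes was sequenced with strand kept.

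The mdx:Utrn+/- saline libraries held 14032622, 7234100 and 25013287 reads and the mdx saline libraries 25458194, 18162940 and 19290414, as recovered from the steps of the TPM values. Scaled TPM below are TPM over a trimmed-mean factor of the library. These factors were 0.8372 to 0.8789 in mdx:Utrn+/- saline and 0.9984 to 1.089 in mdx saline, so scaling moves the groups against each other. Overlap of the groups is judged on scaled TPM throughout. Since the factors raise mdx:Utrn+/- against mdx, some genes that were higher without overlap on scaled TPM overlap on deposited TPM. With the factors the median log2 difference of all genes was 0.03, and without them it was -0.20. The labelled cell type held against its markers: all 10 cardiomyocyte genes were detected, and their summed level was 130000 to 143000 scaled TPM in mdx:Utrn+/- and 107000 to 120000 in mdx. The gap between these sums depends on the factors: the median log2 difference of the 10 genes was 0.11 with them and -0.15 without. Libraries within a group did not lie together. On the first principal component of the 12 libraries, which holds 30.95% of the variance, the mdx:Utrn+/- saline libraries lay at -27.73, -20.43 and -5, and the mdx saline libraries at -22.26, 22.97 and 23.84. Thus on this component mdx library 1 lay among the mdx:Utrn+/- libraries and apart from mdx libraries 2 and 3. The second component holds 21.8% of the variance. On it the mdx:Utrn+/- saline libraries lay at 39.93, 19.65 and -36.06, and the mdx saline libraries at -23.19, 6.197 and -17.66. There mdx:Utrn+/- library 3 lay apart from its own group. A list score, the mean over a list's members of log2(scaled TPM + 1) after subtraction of each gene's 12-library mean, was used to show such shifts. The score of 16 endothelial markers was -0.56, -0.81 and -0.06 in mdx:Utrn+/- and -0.44, 0.28 and 0.60 in mdx. So mdx libraries 2 and 3, the highest on the first component, were also the highest in endothelial RNA. Ribosomal Rn45s, which poly-A selection should remove, stood at 10110, 42110 and 1708 TPM in mdx:Utrn+/- and at 1039, 7611 and 10400 TPM in mdx.

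Utrn itself was lower in the mdx:Utrn+/- libraries. The gene (chr10:12382188-12861735, minus strand, mm10) had 3.96, 7.29 and 6.04 scaled TPM in mdx:Utrn+/- hearts, against 8.93, 8.49 and 11.2 scaled TPM in mdx hearts. Every mdx:Utrn+/- library lay below every mdx library. The means were 5.76 ± 1.68 and 9.53 ± 1.44 scaled TPM (SD, n = 3 each), 39.5% lower in mdx:Utrn+/-, and on the deposited TPM 4.97 ± 1.51 and 9.82 ± 1.29, 49.4% lower. The log2 difference, always mdx:Utrn+/- minus mdx, was -0.66 (95% interval -1.29 to -0.04), with an adjusted p of 0.854 over all genes (limma). An exact two-sided permutation test of the 6 values gave p = 0.1, the smallest that its 20 relabelings allow. Between 312 and 1677 reads per library lay behind these values. In the authors' deposited table, whose log2 fold change runs the other way (mdx minus mdx:Utrn+/-), Utrn stood at 0.74 with a false discovery rate of 0.935. Under PB1046 the log2 difference was -0.63 (-1.25 to 0.00). With the endothelial score as a term in the fit the difference under saline was -0.42.

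Dmd, the gene mutated in every library, showed no such order. It had 1.63, 4.49 and 5.54 scaled TPM in mdx:Utrn+/- and 4.82, 2.98 and 4.51 in mdx, and the groups overlapped. Its log2 difference of -0.14 (-0.81 to 0.52) turned positive without mdx:Utrn+/- library 1, at 0.25.

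Of 25 genes of the dystrophin complex and its enzymes, 22 passed the filter on low values, and 16 of these lay above 0 with a median log2 difference of 0.16. The median was -0.07 without scaling factors, 0.06 to 0.30 with a library left out, and -0.02 with the endothelial score as a term, with 10 of 22 above 0. Among all genes 53.4% lay above 0 and 46.6% below. No member passed adjusted p 0.05, as no gene did (0% of all genes). The groups did not overlap for 3 members that were higher and, besides Utrn, for no member that was lower, against 5.50% and 4.09% of all genes. Cav3, the muscle caveolin that binds dystroglycan, had 303, 254 and 190 scaled TPM in mdx:Utrn+/-, against 167, 149 and 155 in mdx, a log2 difference of 0.64 (0.03 to 1.25, adjusted p = 0.854 in limma). Alpha-sarcoglycan (Sgca) had 273, 220 and 231 scaled TPM in mdx:Utrn+/- and 176, 183 and 168 in mdx, a log2 difference of 0.45 (-0.15 to 1.05). For both genes every mdx:Utrn+/- library lay above every mdx library on scaled TPM. On deposited TPM the groups overlapped for Sgca, and for Cav3 mdx:Utrn+/- library 3 and mdx library 1 were nearly equal. In the PB1046 libraries Cav3 and Sgca also lay above 0, at 0.38 and 0.36.

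For Dag1 the values followed the split within the mdx group. The gene, which encodes dystroglycan, had 96.5, 101 and 87.9 scaled TPM in mdx:Utrn+/- and 105, 48.0 and 38.3 in mdx. In this gene mdx library 1 stood with the mdx:Utrn+/- libraries, and the groups overlapped. Epsilon-sarcoglycan (Sgce), the relative of alpha-sarcoglycan found outside striated muscle as well, had lower values in mdx:Utrn+/-, with a log2 difference of -0.38 (-0.87 to 0.12).

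**Figure D1:**
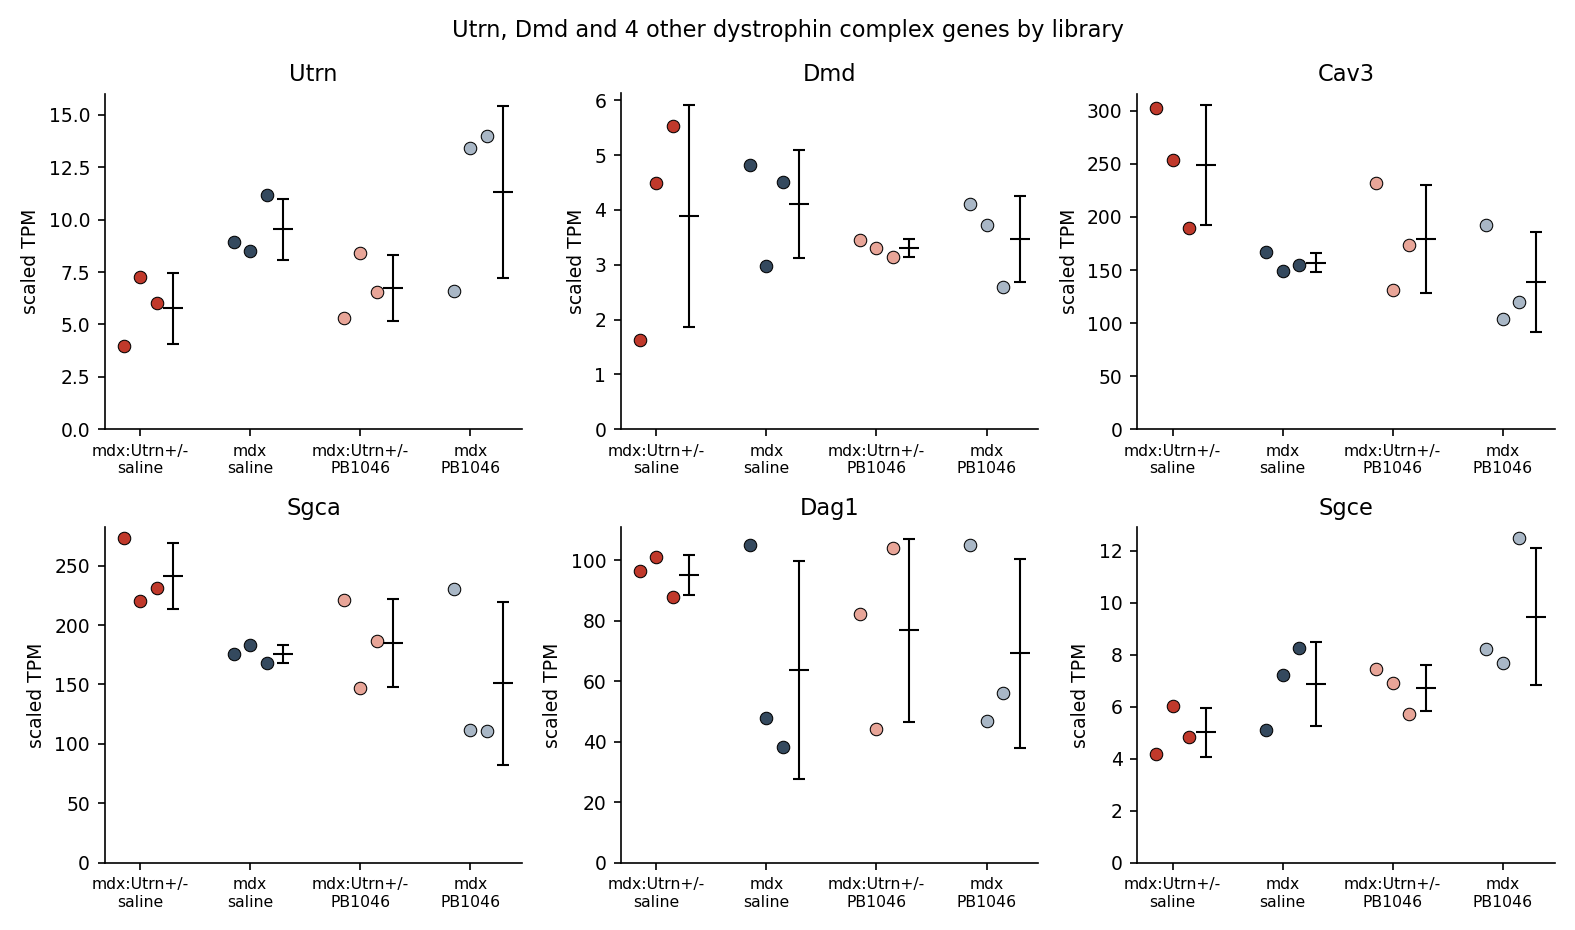
Scaled TPM (TPM divided by the library's trimmed-mean factor) of 6 genes of the dystrophin complex, with a point per library and, beside the points, the group mean with its SD (n = 3). On scaled TPM the 3 mdx:Utrn+/- saline libraries lie below the 3 mdx saline libraries for Utrn and above them for Cav3 and Sgca. For Sgca the groups overlap on deposited TPM. For Dag1 mdx library 1 stands at 105 scaled TPM with the mdx:Utrn+/- libraries.

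Across all genes, none of 12798 passed adjusted p 0.05 in limma, and the smallest adjusted p was 0.355. At unadjusted p under 0.05 there were 515 genes, 4.02% of those tested, of which 297 (2.32%) were higher and 218 (1.70%) lower in mdx:Utrn+/-. Without scaling factors the same count was 625, with 62 higher and 563 lower. In limma-voom on the recovered reads 470 genes had an unadjusted p under 0.05, and again none passed the adjusted threshold. The authors' deposited table also holds no gene under a false discovery rate of 0.05 for this pair of groups, with 862 of 18530 genes at p under 0.05. Leaving out a library gave, in place of 515, counts of 182, 309 and 1910 without mdx:Utrn+/- library 1, 2 and 3, and of 962, 370 and 190 without mdx library 1, 2 and 3. Groups did not overlap for 704 genes that were higher (5.50%) and 523 that were lower (4.09%). The log2 difference also followed gene properties: its Spearman correlation across genes, which are not independent replicates, was 0.246 with GC content and -0.181 with transcript length. With genes in 10 bins by GC content, the bin poorest in GC had a median of -0.115 and the richest 0.145.

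The 12 genes per direction with the smallest p, among those averaging at least 2 TPM in the saline libraries, are given as a description, since none passed the threshold. Synpo, an actin-bundling partner, had 51.6, 33.4 and 44.2 scaled TPM in mdx:Utrn+/-, against 22.7, 25.0 and 17.6 in mdx, a log2 difference of 0.94 (0.41 to 1.48). Cebpb, a transcription factor of acute-phase and hypertrophy responses, had 62.1, 29.3 and 49.0 against 20.6, 25.5 and 14.8, a difference of 1.13 (0.41 to 1.86). Midn, whose nuclear protein carries short-lived transcription factors to the proteasome, had 37.5, 31.8 and 42.8 against 29.3, 21.7 and 23.3, a difference of 0.58 (0.20 to 0.96). On scaled TPM the groups did not overlap for any of these 3, while on deposited TPM those of Cebpb and Midn overlapped. P4ha1, a collagen prolyl hydroxylase, differed by 0.89 (0.32 to 1.46), Qsox1, a sulfhydryl oxidase, by 1.21 (0.42 to 1.99), and Furin, a proprotein convertase, by 0.69 (0.24 to 1.15). The phosphatase gene Dusp18 differed by 0.95, the mitochondrial carrier Slc25a29 by 0.82 and the mRNA export adaptor Alyref by 1.04. For Alyref alone among the 12 the groups overlapped on scaled TPM, since mdx:Utrn+/- library 3 had 24.9 and mdx library 1 had 25.0.

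The remaining 3 rest on few or uncertain reads. Erdr1 had 16.8, 93.1 and 77.6 scaled TPM in mdx:Utrn+/- and 0, 0.105 and 7.44 in mdx, and its log2 difference of 4.60 was the largest of the 24. Erdr1 lies in the pseudoautosomal region, where copies are poorly assembled, and Usp17la (1.29) belongs to a multicopy family, so reads of both may be shared with copies. S100a9, a calprotectin subunit of neutrophils, had 6.43, 6.62 and 5.0 scaled TPM in mdx:Utrn+/- and 2.15, 1.09 and 0.315 in mdx, from 2 to 36 reads per library.

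On the lower side, no group overlap was seen for any of the 12, against 4.09% of all genes lower without overlap. Like the 12 higher genes, they were picked by p in these same libraries, so little overlap follows from the choice. Hspa12a, a distant member of the Hsp70 family, had 4.70, 5.90 and 4.74 scaled TPM in mdx:Utrn+/-, against 8.23, 11.2 and 13.9 in mdx, a log2 difference of -0.97 (-1.44 to -0.49). Gjc1, which encodes the gap junction protein connexin 45, had 9.64, 9.66 and 9.80 against 15.9, 14.2 and 17.0, a difference of -0.64 (-1.06 to -0.23). Parp16, an ADP-ribosyltransferase of the endoplasmic reticulum, had 3.58, 2.80 and 2.52 against 5.30, 4.82 and 6.02, a difference of -0.69 (-1.09 to -0.29). For Gjc1 the 3 mdx:Utrn+/- libraries were almost equal, and for Hspa12a the mdx libraries were the more spread. Eif2s3y, a translation initiation factor gene on the Y chromosome, had 32.5, 47.0 and 59.6 against 79.3, 79.5 and 93.7 scaled TPM, so RNA of a Y-linked gene was present in all 6 libraries. Other Y-linked genes did not share its difference of -0.88: Ddx3y stood at 0.56, Kdm5d at -0.06 and Uty at -0.23. The differences of the mismatch repair gene Msh3, the interferon-induced Parp9, the ciliary gene Cc2d2a and the glycosylation gene Alg14 were -0.90, -0.79, -0.83 and -0.79. Those of Sema6d, a semaphorin, Lpar6, a receptor for lysophosphatidic acid, Exd2, an exonuclease, and Zfp40, a zinc finger gene, were -0.84, -1.10, -1.01 and -1.09.

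In the PB1046 libraries, which share none with the saline comparison, 5 of the 12 higher genes lay above 0 with a median of -0.05, and 3 of the 12 lower genes lay below 0 with a median of 0.18. Midn stood at -0.47 (-0.85 to -0.10) there. The test of the difference between the genotype differences under saline and under PB1046 gave an unadjusted p under 0.05 for 11 of the 12 higher and 10 of the 12 lower genes, against 2.25% of all genes. These 24 were picked for their saline values, which enter that test. None passed adjusted p 0.05, nor did any gene tested, and the smallest adjusted p was 0.999. Of all genes 52.2% lay above 0 and 47.7% below it under PB1046. Over all genes the saline and PB1046 differences had the same sign for 7288 genes (56.9%).

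**Figure D2:**
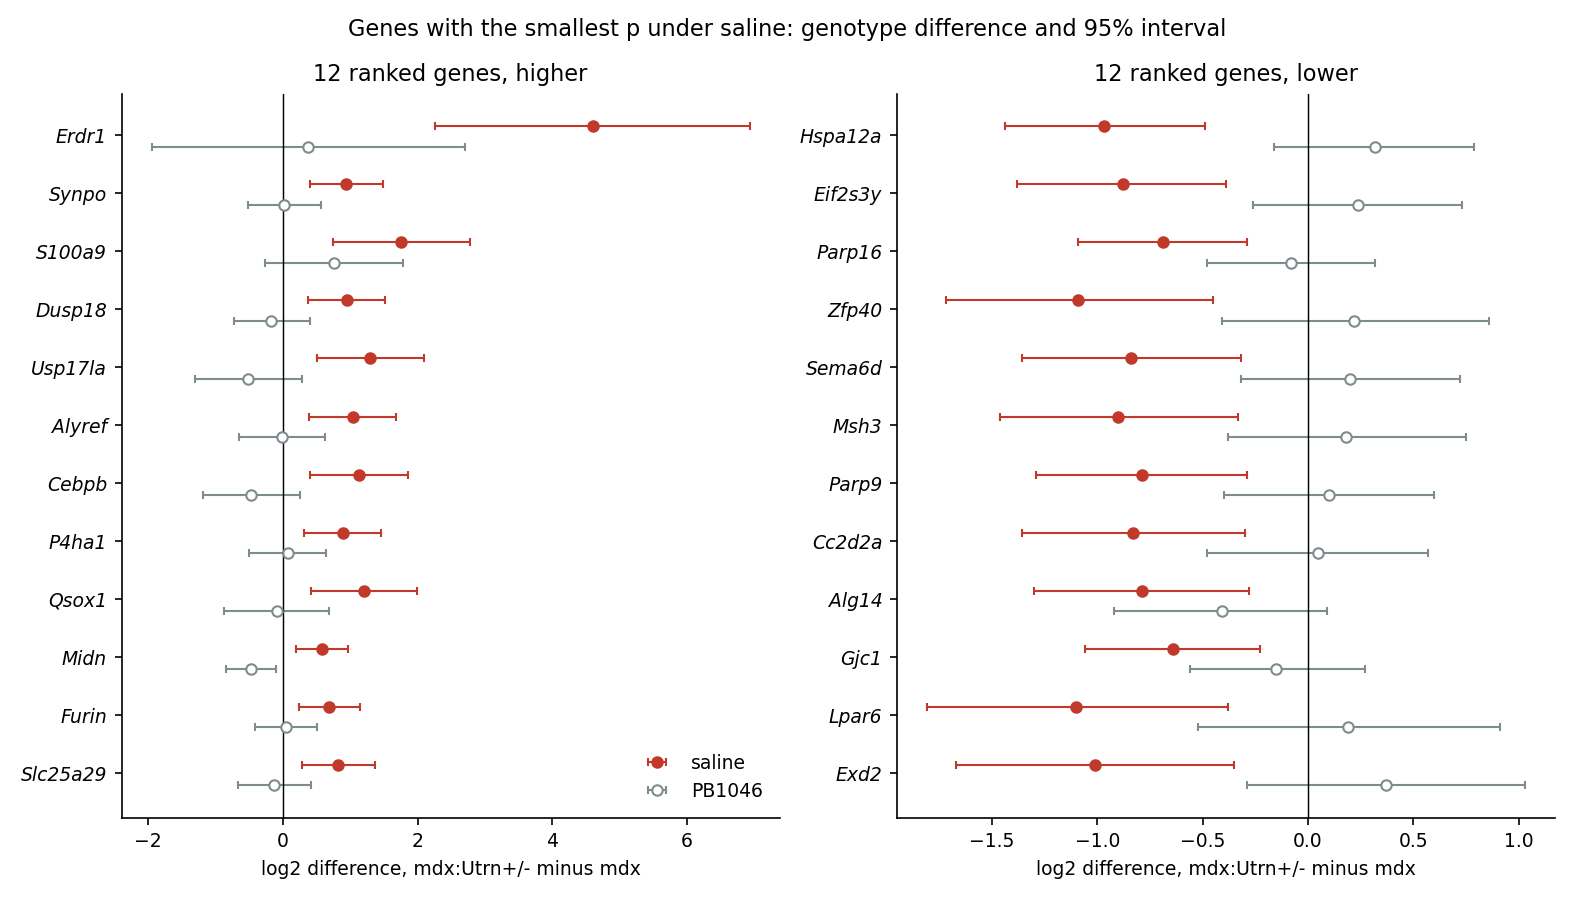
Log2 difference, mdx:Utrn+/- minus mdx, with its 95% interval from limma, for the 12 higher and 12 lower genes with the smallest p under saline (filled red) and for the same genes under PB1046 (open grey). The saline intervals lie off 0 by the choice of the genes, and 5 of the 12 higher and 3 of the 12 lower genes keep their side under PB1046.

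Most chaperones and folding enzymes of the endoplasmic reticulum had higher values in mdx:Utrn+/-. Unfinished proteins in this compartment are met by the unfolded protein response, in which the sensors ATF6, IRE1 and PERK raise the output of chaperones. Of 23 genes of this response 19 lay above 0, with a median of 0.33 (0.11 without scaling factors, where all genes stood at -0.20). At unadjusted p under 0.05 there were 5 higher and 1 lower, against 2.32% and 1.70% of all genes, and no member passed the adjusted threshold. Chaperone genes are known for the endoplasmic reticulum stress response element, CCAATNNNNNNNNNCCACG, whose first part is bound by NF-Y and whose last part by ATF6. Of the 21 members with a RefSeq promoter window (GRCm38.p6, 250 bases before to 50 bases after the start), 7 hold it on either strand, namely Calr, Canx, Creld2, Dnajc3, Hsp90b1, Hspa5 and Pdia6. It stands in 0.119% of all 32851 windows and in 14 of the 9392 tested genes that have a window (0.149%). The windows of the 4 element-bearing members with the smallest p are shown so that the element, in capitals, can be read in its place. Hspa5 lies at chr2:34771840-34772139 (plus strand), Hsp90b1 at chr10:86705395-86705694 (minus), Calr at chr8:84846882-84847181 (minus) and Pdia6 at chr12:17266339-17266638 (plus). The Hsp90b1 window holds the element on both strands and the Calr window on the opposite strand, where it reads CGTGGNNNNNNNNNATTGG.
Hspa5: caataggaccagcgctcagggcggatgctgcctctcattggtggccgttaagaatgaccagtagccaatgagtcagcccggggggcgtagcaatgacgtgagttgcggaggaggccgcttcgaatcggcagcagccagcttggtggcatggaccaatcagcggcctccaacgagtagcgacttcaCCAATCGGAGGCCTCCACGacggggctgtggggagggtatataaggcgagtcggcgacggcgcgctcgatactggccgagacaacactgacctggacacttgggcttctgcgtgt
Hsp90b1: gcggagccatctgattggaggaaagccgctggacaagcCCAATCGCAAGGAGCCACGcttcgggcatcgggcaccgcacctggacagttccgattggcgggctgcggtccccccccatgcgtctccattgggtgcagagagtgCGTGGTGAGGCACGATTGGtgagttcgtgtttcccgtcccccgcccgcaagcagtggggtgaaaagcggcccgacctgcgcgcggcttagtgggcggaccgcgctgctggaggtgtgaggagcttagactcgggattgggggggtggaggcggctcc
Calr: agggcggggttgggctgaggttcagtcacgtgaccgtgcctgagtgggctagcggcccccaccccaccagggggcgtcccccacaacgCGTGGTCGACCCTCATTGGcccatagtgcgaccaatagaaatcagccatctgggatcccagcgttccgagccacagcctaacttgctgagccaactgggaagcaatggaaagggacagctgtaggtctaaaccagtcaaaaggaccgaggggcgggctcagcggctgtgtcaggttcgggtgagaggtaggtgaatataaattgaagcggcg
Pdia6: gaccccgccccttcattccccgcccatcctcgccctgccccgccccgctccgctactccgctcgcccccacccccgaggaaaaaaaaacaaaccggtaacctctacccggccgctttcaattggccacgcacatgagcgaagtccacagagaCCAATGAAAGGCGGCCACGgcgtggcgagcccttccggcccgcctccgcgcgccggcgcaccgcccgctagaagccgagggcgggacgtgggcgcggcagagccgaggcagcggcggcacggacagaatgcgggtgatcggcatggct

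Hspa5, the master chaperone BiP, had 569, 636 and 445 scaled TPM in mdx:Utrn+/-, against 423, 238 and 258 in mdx. On scaled TPM every mdx:Utrn+/- library lay above every mdx library, and mdx library 1 was the highest of its group. On deposited TPM mdx:Utrn+/- library 3 lay below mdx library 1. The log2 difference was 0.87 (0.19 to 1.56, adjusted p = 0.854 in limma), and under PB1046 it was 0.51. Hsp90b1, the Hsp90 of the endoplasmic reticulum, had 363, 342 and 278 against 249, 210 and 215 scaled TPM, without overlap, a difference of 0.54 (0.09 to 0.98). Its groups also overlapped on deposited TPM. Pdia6, a disulfide isomerase, had 118, 117 and 73.5 against 74.2, 57.2 and 54.9, a difference of 0.70 (0.15 to 1.25). Calr, a lectin chaperone that stores calcium, had 434, 387 and 239 against 253, 205 and 212, a difference of 0.62 (0.05 to 1.20). For Pdia6 and Calr mdx:Utrn+/- library 3 lay just below mdx library 1. Herpud1, a degradation adaptor, and Manf, a secreted chaperone cofactor, were also higher without overlap, at 0.86 and 0.57. Below 0 lay 4 members. Eif2ak3, which encodes the sensor PERK, was lower without overlap at -0.54, and Trib3, Ddit3 and Atf4, regulators that act after PERK, stood at -0.27, -0.19 and -0.04, while the ATF4 target Asns stood at 0.03. The 7 tested genes with the element outside the list had a median of 0.01, with 4 above 0 and none at unadjusted p under 0.05. Under PB1046 the 23 genes had a median of 0.07, with 15 above 0. Without mdx library 3 the saline median was 0.20, and with the endothelial score as a term it was 0.18, with 17 of 23 above 0.

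**Figure D3:**
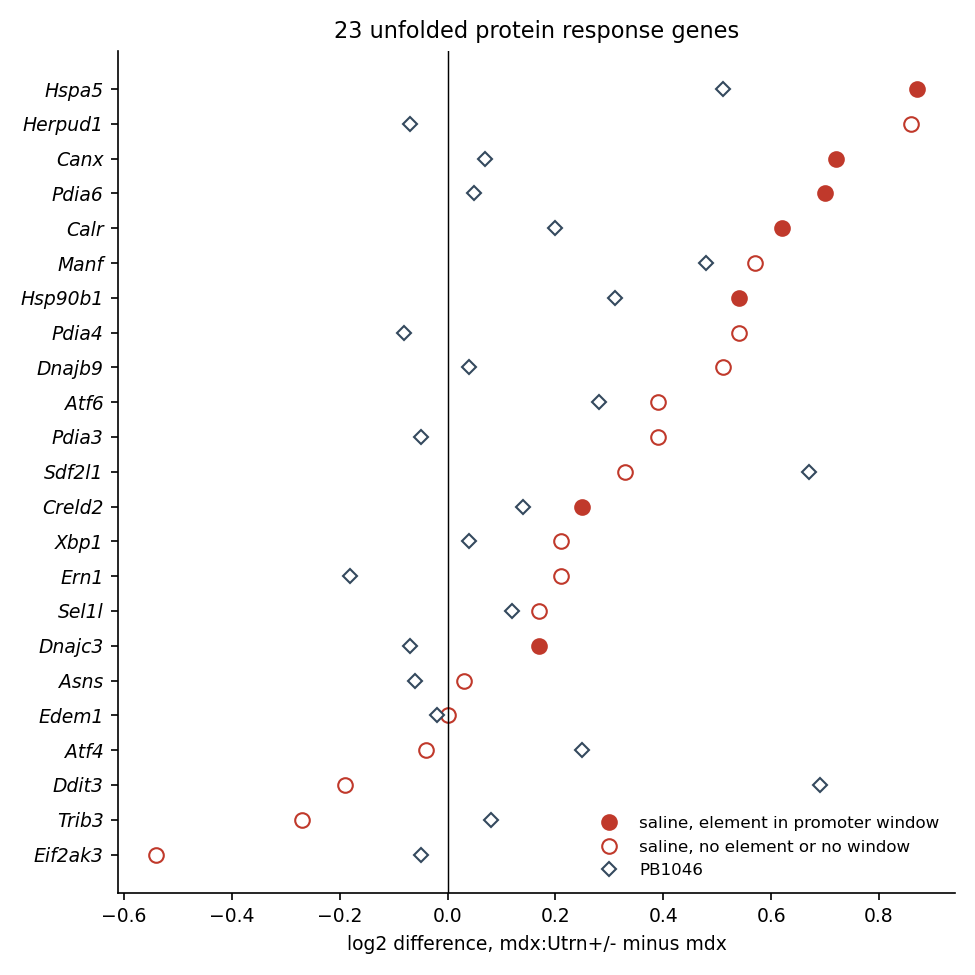
Log2 difference, mdx:Utrn+/- minus mdx, of 23 unfolded protein response genes under saline (circles, filled where the RefSeq promoter window holds the element) and under PB1046 (diamonds). Under saline 19 of 23 lie above 0, from Hspa5 at 0.87 down to Eif2ak3 at -0.54.

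Heat shock genes, among them Hspd1 and Hspe1 of the mitochondrial chaperonin, lay above 0 for 14 of 16 members, with a median of 0.35 (0.10 without scaling factors and 0.14 with the endothelial score as a term). Without mdx:Utrn+/- library 3 the median was 0.05, with 9 of 16 above 0, and without mdx library 1 it was 0.54. Bag3, the cochaperone that clears damaged filamin and is linked to dilated cardiomyopathy, had 396, 318 and 346 scaled TPM in mdx:Utrn+/-, against 231, 164 and 197 in mdx, a log2 difference of 0.84 (0.12 to 1.57). Its high values came from all 3 mdx:Utrn+/- libraries. Hsp90aa1, the inducible Hsp90, had 157, 173 and 310 against 144, 106 and 105, a difference of 0.79 (0.17 to 1.42), and Hsp90ab1 had 797, 803 and 787 against 737, 546 and 506, a difference of 0.44 (0.02 to 0.85). Hsph1, an Hsp70 exchange factor, had 27.1, 25.2 and 116 against 32.5, 17.1 and 15.7, so that 1 library carried its difference of 1.03 (-0.03 to 2.09). Under PB1046 the list's median was 0.31.

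Oxidative stress genes lay above 0 for 24 of 26 members, with a median of 0.25 (0.01 without scaling factors) against 0.05 under PB1046. The metallothioneins, which bind zinc and scavenge radicals, stood farthest out. Mt1 had 1440, 1020 and 1440 scaled TPM in mdx:Utrn+/-, against 510, 610 and 308 in mdx, a log2 difference of 1.49 (0.38 to 2.59). Mt2 had 178, 132 and 179 against 105, 62.6 and 20.2, a difference of 1.64 (0.04 to 3.23). For both, all mdx:Utrn+/- libraries lay above all mdx libraries. Srxn1, the sulfiredoxin that repairs peroxiredoxins, had 26.6, 21.8 and 31.3 against 21.3, 15.4 and 19.8, a difference of 0.48 (0.02 to 0.93). Nqo1, a quinone reductase, differed by 0.72 (0.05 to 1.39), with mdx library 1 at 84.2 scaled TPM inside the mdx:Utrn+/- range of 82.3 to 103. Gstm1 and Gpx4, which detoxify electrophiles and lipid peroxides, were the other members without overlap. These made 5 of 26 members, all higher, against 5.50% of all genes. On deposited TPM the groups of Srxn1 overlapped. The list's median was 0.40 without mdx library 1 and 0.25 with the endothelial score as a term.

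Most metabolic genes of the heart muscle lay on the higher side. Of 36 fatty acid oxidation genes 35 lay above 0, with a median of 0.39 (0.12 without scaling factors). On scaled TPM the groups did not overlap for 4 of them (Slc27a1, Lpl, Cpt1b and Esrra), all higher, against 5.50% of all genes. On deposited TPM those of Slc27a1 and Lpl overlapped. Lpl, the lipase that frees fatty acids from lipoproteins, had 11500, 10800 and 5430 scaled TPM in mdx:Utrn+/-, against 4900, 3310 and 3760 in mdx, a log2 difference of 1.16 (0.08 to 2.23). The fatty acid transporter Slc27a1 had 122, 101 and 136 against 96.4, 60 and 69.6, a difference of 0.68 (0.06 to 1.29). For both genes mdx library 1 was the highest of its group. The mitochondrial enzymes Cpt2 and Acads differed by 0.72 and 0.70, with overlap. By library the list score was 0.26, 0.29 and -0.12 in mdx:Utrn+/- and 0.27, -0.68 and -0.39 in mdx, so that mdx library 1 lay with the highest mdx:Utrn+/- libraries. Without mdx library 2 the list's median was 0.19 and without mdx library 1 it was 0.59, and with the endothelial score as a term it was 0.10, with 23 of 36 above 0. Under PB1046 it was 0.23.

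Glycolytic genes lay above 0 for 20 of 24 members, with a median of 0.30 (0.04 without scaling factors and 0.10 after removal of trends over GC content, length and level). Ldha, lactate dehydrogenase A, had 1990, 1910 and 1180 scaled TPM against 1050, 1110 and 991, without overlap, a difference of 0.65 (0.00 to 1.30). On deposited TPM its groups overlapped. The insulin-regulated glucose transporter Slc2a4 had 684, 596 and 340 against 345, 251 and 284, and Slc2a1, the basal glucose transporter, had 19.3, 17.8 and 13.4 against 14.9, 7.45 and 7.58. In each of these transporter genes a pair of libraries crossed between groups. The list's median was 0.27 under PB1046, 0.17 without mdx library 3 and 0.06 with the endothelial score as a term. Oxidative phosphorylation genes lay above 0 for 33 of 40 members under saline, with a median of 0.19 (-0.07 without scaling factors and -0.04 with the endothelial term), and for all 40 under PB1046, with a median of 0.48. Among them Uqcrq, a subunit of complex III, had 5900, 5110 and 4760 against 3130, 4070 and 4470 scaled TPM.

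Contractile and calcium handling genes were less uniform. Of 20 sarcomere genes 16 lay above 0, with a median of 0.19. It was -0.07 without scaling factors, 0.09 without mdx library 2 and 0.00 with the endothelial score as a term, with 10 of 20 above 0. Myl3, the ventricular essential light chain, had 32400, 29300 and 24100 scaled TPM in mdx:Utrn+/-, against 16700, 17800 and 17800 in mdx, a log2 difference of 0.70 (0.03 to 1.37) with no overlap. Of 29 calcium handling genes 21 lay above 0, with a median of 0.08 (-0.08 without scaling factors, and 0.03 to 0.28 with a library left out). Jph2, which moors the T-tubule to the sarcoplasmic reticulum, had 402, 297 and 238 against 212, 149 and 153, a difference of 0.85 (0.24 to 1.45). Its groups did not overlap on scaled TPM but did on deposited TPM. Orai1, a store-operated calcium channel, had 56.8, 45.0 and 18.9 against 18.9, 20.1 and 17.3, so its difference of 0.93 (0.08 to 1.78) came from mdx:Utrn+/- libraries 1 and 2. Itpr1, a calcium release channel, had lower values, at -0.65 (-1.28 to -0.02), with overlap.

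Genes of cardiac stress had a median of 0.30, with 15 of 19 above 0, but single libraries set the values. Acta1, the skeletal actin of the fetal gene program, had 1140, 569 and 183 scaled TPM in mdx:Utrn+/- and 769, 65.5 and 56.1 in mdx. Nppa, the atrial natriuretic peptide gene, had 6060, 1360 and 2440 in mdx:Utrn+/- and 4460, 1010 and 400 in mdx. In both genes mdx library 1 lay within the mdx:Utrn+/- range. The list's median was 0.73 without mdx library 1, 0.08 without mdx library 3, 0.04 without scaling factors and -0.02 with the endothelial score as a term. Ky, a muscle gene needed for normal growth and neuromuscular junctions, went the other way at -0.87 (-1.61 to -0.12). Microtubule genes had a median of 0.08 (-0.13 without scaling factors), with Tuba1c, an alpha-tubulin, at 52.3, 35.6 and 25.5 against 20.5, 18.6 and 14.4 scaled TPM, without overlap. Genes of atrophy and autophagy had a median of 0.35 with 14 of 19 above 0. The median was 0.22 without mdx library 3, 0.11 with the endothelial score as a term and 0.09 without scaling factors. Foxo3, the transcription factor that turns them on, had 6.02, 5.91 and 5.29 against 2.31, 4.22 and 3.86, a difference of 0.62 (0.08 to 1.16). Under PB1046 Foxo3 stood at -0.72, and the difference between treatments had an adjusted p of 0.999.

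Immediate early genes, which are switched on within minutes by stimuli that include cell isolation, had lower values in mdx:Utrn+/-. Of 25 members 18 lay below 0, with a median of -0.41, and 6 were lower without overlap, against 4.09% of all genes. Egr1, a zinc finger factor, had 30.2, 35.7 and 37.9 scaled TPM in mdx:Utrn+/-, against 86.4, 73.5 and 121 in mdx, a log2 difference of -1.39 (-2.47 to -0.31). Junb had 67.3, 95.1 and 76.5 against 184, 104 and 173, a difference of -0.91 (-1.70 to -0.12), and Fos had 44.8, 76.9 and 118 against 209, 105 and 164, a difference of -1.04 (-2.02 to -0.06). Junb and Egr1 did not overlap, and Fos did. Egr3, Ier2 and Dusp1 were also lower without overlap. Ier3, an NF-kB responsive survival gene, went the other way, with 228, 148 and 104 against 79.8, 77.0 and 47.0, a difference of 1.19 (0.09 to 2.29). Under PB1046 Egr1 stood at 0.46 and the list's median at -0.08. Without mdx:Utrn+/- library 1 the saline median was -0.10, with the endothelial term it was -0.25, and without scaling factors -0.67. Collection and isolation times are not given in the labels, and their part in these values was not tested.

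The nitric oxide and cGMP pathway, in which dystrophin normally anchors neuronal nitric oxide synthase, lay below 0 for 12 of 13 tested genes, with a median of -0.32 (-0.53 without scaling factors). Nos1, the gene of the neuronal synthase, was not among the 13. Gucy1a3, a subunit of the guanylate cyclase that nitric oxide activates, had 2.52, 2.05 and 1.83 scaled TPM in mdx:Utrn+/-, against 3.46, 4.14 and 3.51 in mdx. Its log2 difference was -0.59 (-1.05 to -0.12), and its partner subunit Gucy1b3 was also lower without overlap. Nos2, the inducible synthase, had 1.69, 2.47 and 1.17 against 2.82, 3.12 and 5.61, again without overlap. The list's median was -0.12 under PB1046 and -0.14 with the endothelial score as a term, with 5 of 13 above 0. Interferon response genes lay below 0 for 23 of 27 members, with a median of -0.26, and for 24 of 27 under PB1046, with a median of -0.24. Ifit2 had 6.62, 6.67 and 7.89 against 11.6, 12.1 and 11.5, without overlap, and Rsad2, an antiviral enzyme gene, had 10.3, 7.03 and 7.20 against 10.6, 14.5 and 14.0. The saline median of the interferon list was -0.49 without mdx library 1 and -0.13 without mdx library 2, -0.50 without scaling factors, and 0.06 with the endothelial term, with 15 of 27 above 0.

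**Figure D4:**
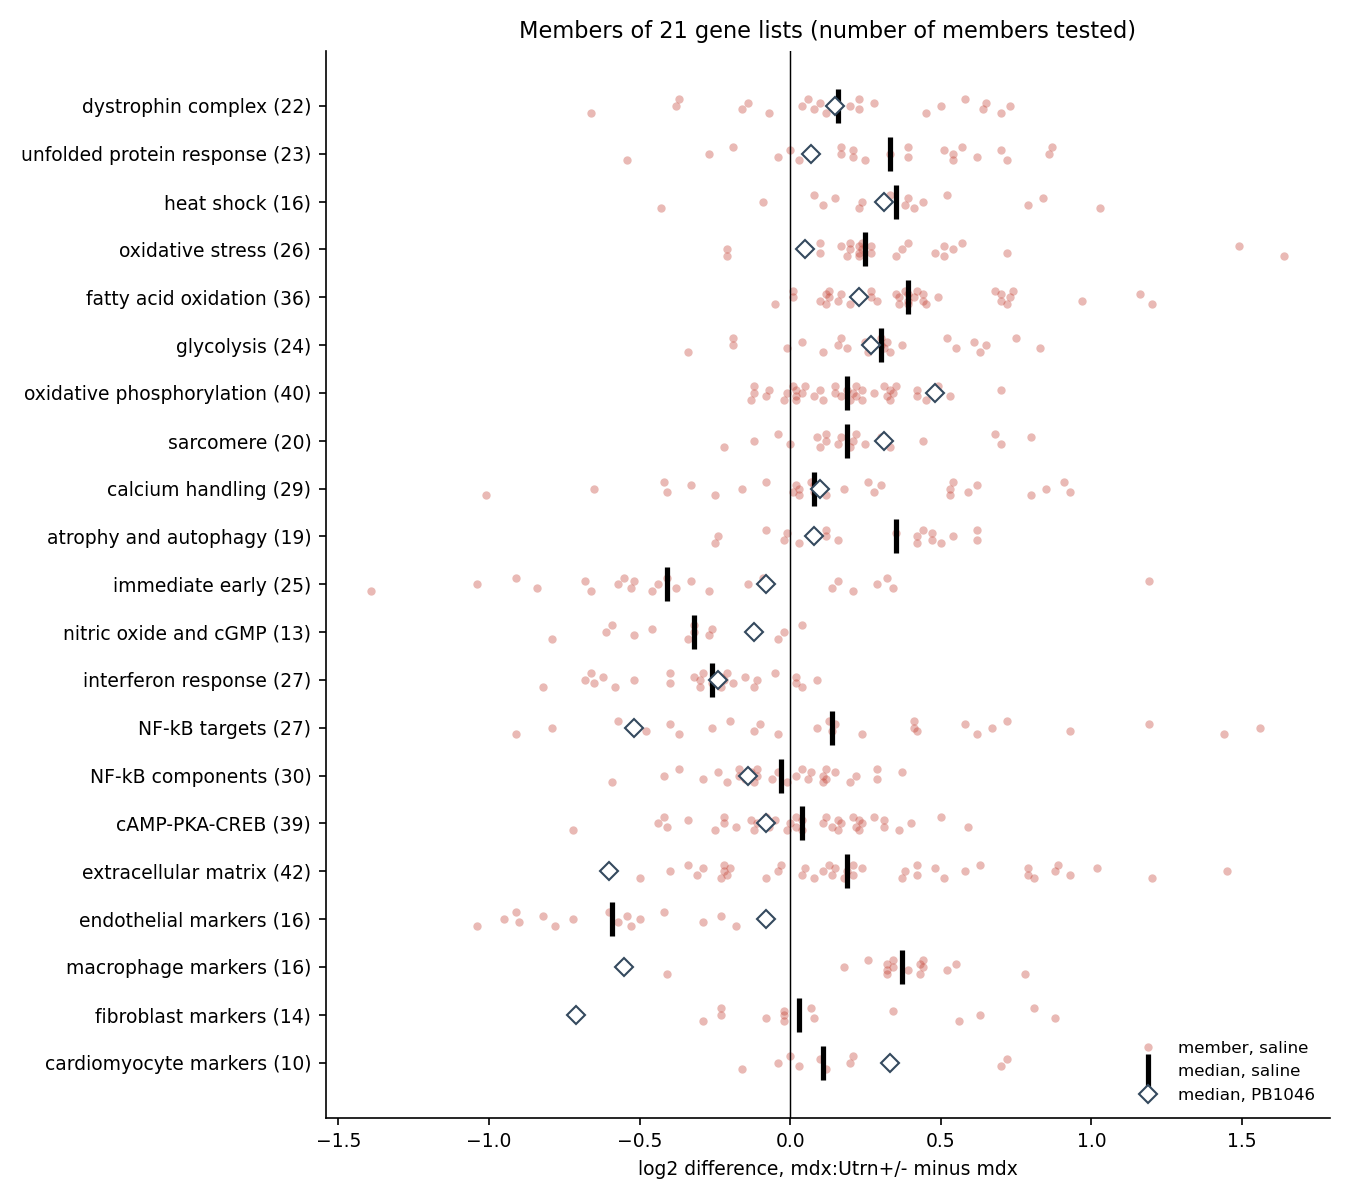
Log2 difference, mdx:Utrn+/- minus mdx, of each tested member of 21 gene lists under saline (red points), with the list's median under saline (black bar) and under PB1046 (open diamond). Medians under saline run from -0.59 for endothelial markers to 0.39 for fatty acid oxidation, against 0.03 for all genes. Without scaling factors all genes stand at -0.20, and the medians of the dystrophin complex, oxidative phosphorylation, sarcomere, calcium handling, cAMP-PKA-CREB, NF-kB target, extracellular matrix, fibroblast and cardiomyocyte lists lie below 0.

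The design of the series asks for transcripts of the cAMP-PKA-CREB and NF-kB pathways. Of 39 tested genes of the cAMP-PKA-CREB pathway 23 lay above 0, with a median of 0.04 (-0.20 without scaling factors), close to that of all genes. Creb1, the transcription factor at its end, had 3.81, 3.92 and 4.51 scaled TPM in mdx:Utrn+/-, against 4.82, 6.04 and 7.0 in mdx, without overlap, a log2 difference of -0.44 (-0.90 to 0.01). The phosphodiesterase gene Pde3b was the only member of 39 higher without overlap and Creb1 the only lower one, against 5.50% and 4.09% of all genes. The cAMP response element, TGACGTCA on either strand, stands in the promoter windows of 330 tested genes (3.51% of those with a window), and 169 of these lay above 0 with a median of 0.01. Of 30 NF-kB components 14 lay above 0, with a median of -0.03, and 3 (Relb, Nfkbiz and Tnfrsf1a) were lower without overlap, against 4.09% of all genes. None of the 30 had an unadjusted p under 0.05 in limma. Nfkbiz, a nuclear regulator of NF-kB, had 2.81, 4.25 and 4.84 against 6.16, 6.61 and 6.28.

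NF-kB target genes lay above 0 for 16 of 27 tested members, with a median of 0.14 (-0.11 without scaling factors and -0.03 with a term for Rn45s), against 6 of 27 and -0.52 under PB1046. Lcn2, an iron-binding acute-phase protein, had 22.6, 16.6 and 12.4 scaled TPM in mdx:Utrn+/-, against 12.5, 4.61 and 1.84 in mdx, a log2 difference of 1.56 (0.18 to 2.95). The chemokine Ccl7 had 18.7, 32.6 and 5.92 against 5.47, 9.23 and 9.09, so mdx:Utrn+/- libraries 1 and 2 stood apart from library 3. A kB site spelled GGGANTTTCC, on either strand, stands in the windows of 45 tested genes, of which 24 lay above 0 with a median of 0.05. No test of a difference between treatments passed adjusted p 0.05 for a member of these lists.

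Extracellular matrix genes lay above 0 for 29 of 42 members, with a median of 0.19 (-0.05 without scaling factors), and for 4 of 42 under PB1046, with a median of -0.60. Spp1, the matrix cytokine osteopontin, had 128, 92.1 and 9.14 scaled TPM in mdx:Utrn+/- and 8.46, 28.7 and 20.1 in mdx. Ctgf, a matricellular growth factor, had 302, 160 and 132 against 175, 119 and 43.8. Both groups were wide and overlapped. The matrix and fibroblast lists share Col1a1, Col1a2, Col3a1, Dcn, Lum, Postn and Fn1, so part of the likeness of their scores is built in. The matrix score was 0.38, 0.43 and -0.60 in mdx:Utrn+/- and -0.47, 0.53 and -0.65 in mdx. The fibroblast score was 0.44, 0.37 and -0.67 in mdx:Utrn+/- and -0.41, 0.80 and -0.79 in mdx. The matrix median was 0.63 without mdx library 2, -0.04 without mdx library 3 and 0.01 with a term for Rn45s.

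Markers of other cells of the heart moved with several of these groups, and in bulk RNA fewer cells of a type and less RNA per cell cannot be told apart. All 16 endothelial markers were detected and lay below 0, with a median of -0.59, and their summed level was 1690 to 2240 scaled TPM in mdx:Utrn+/- and 1630 to 4340 in mdx. Kdr, the main receptor for vascular endothelial growth factor, had 18.1, 16 and 20 scaled TPM in mdx:Utrn+/-, against 27.9, 35.1 and 55.8 in mdx. The sialomucin Emcn had 36.8, 26.5 and 41.8 against 45.3, 64.9 and 93.2, and the junction gene Cdh5 had 29.7, 27.4 and 50.6 against 48.5, 66.6 and 96.1. Kdr and Emcn were the 2 of 16 markers without overlap, both lower, against 4.09% of all genes. The list's median was -0.91 without mdx library 1 and -0.33 without mdx library 3, and -0.08 under PB1046. The part of endothelial RNA in the differences of other lists was not tested beyond the fits with its score given above.

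Of 16 detected macrophage markers 15 lay above 0, with a median of 0.37 (0.14 without scaling factors), but the score was 1.32, -0.34 and -0.37 in mdx:Utrn+/- and -0.49, 0.91 and -0.87 in mdx. Thus 1 library per genotype was rich in macrophage RNA, and the median was -0.14 without mdx:Utrn+/- library 1 and 0.86 without mdx library 2. Their summed level was 202 to 1100 scaled TPM in mdx:Utrn+/- and 134 to 694 in mdx. Under PB1046 all 16 lay below 0, with a median of -0.55. The 4 tested neutrophil markers lay above 0, with a summed level of 11.1 to 19.5 scaled TPM in mdx:Utrn+/- and 2.44 to 5.75 in mdx. S100a8, the partner of S100a9, had 7.56, 2.95 and 3.72 against 1.18, 0.627 and 0.842. Erythroid genes lay above 0 for 5 of 5, with Hba-a1 at 68.3, 22.0 and 6.45 against 8.88, 14.5 and 2.88, where reads may be shared with its near-identical copy.

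Of 5 tested atrial markers 3 lay below 0, with a median of -0.67 under saline and -1.40 under PB1046, and the saline median was 0.05 without mdx:Utrn+/- library 3. The atrial light chain Myl7 had 10, 62.8 and 0.864 scaled TPM in mdx:Utrn+/- and 54.2, 29.7 and 68.1 in mdx, and the groups overlapped. Its log2 difference was -2.16 under saline and -2.16 under PB1046, with an unadjusted p of 0.0499 and 0.0496 in limma and an adjusted p of 0.854 under saline. Sln, the atrial inhibitor of the calcium pump, differed by -1.01 under saline and -1.96 under PB1046, and Myl4, the atrial essential light chain, by -0.67 and -1.40. Nppa, given above, differed by 1.16 and 0.82. The part of atrial RNA in the values of other lists was not tested.

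**Figure D5:**
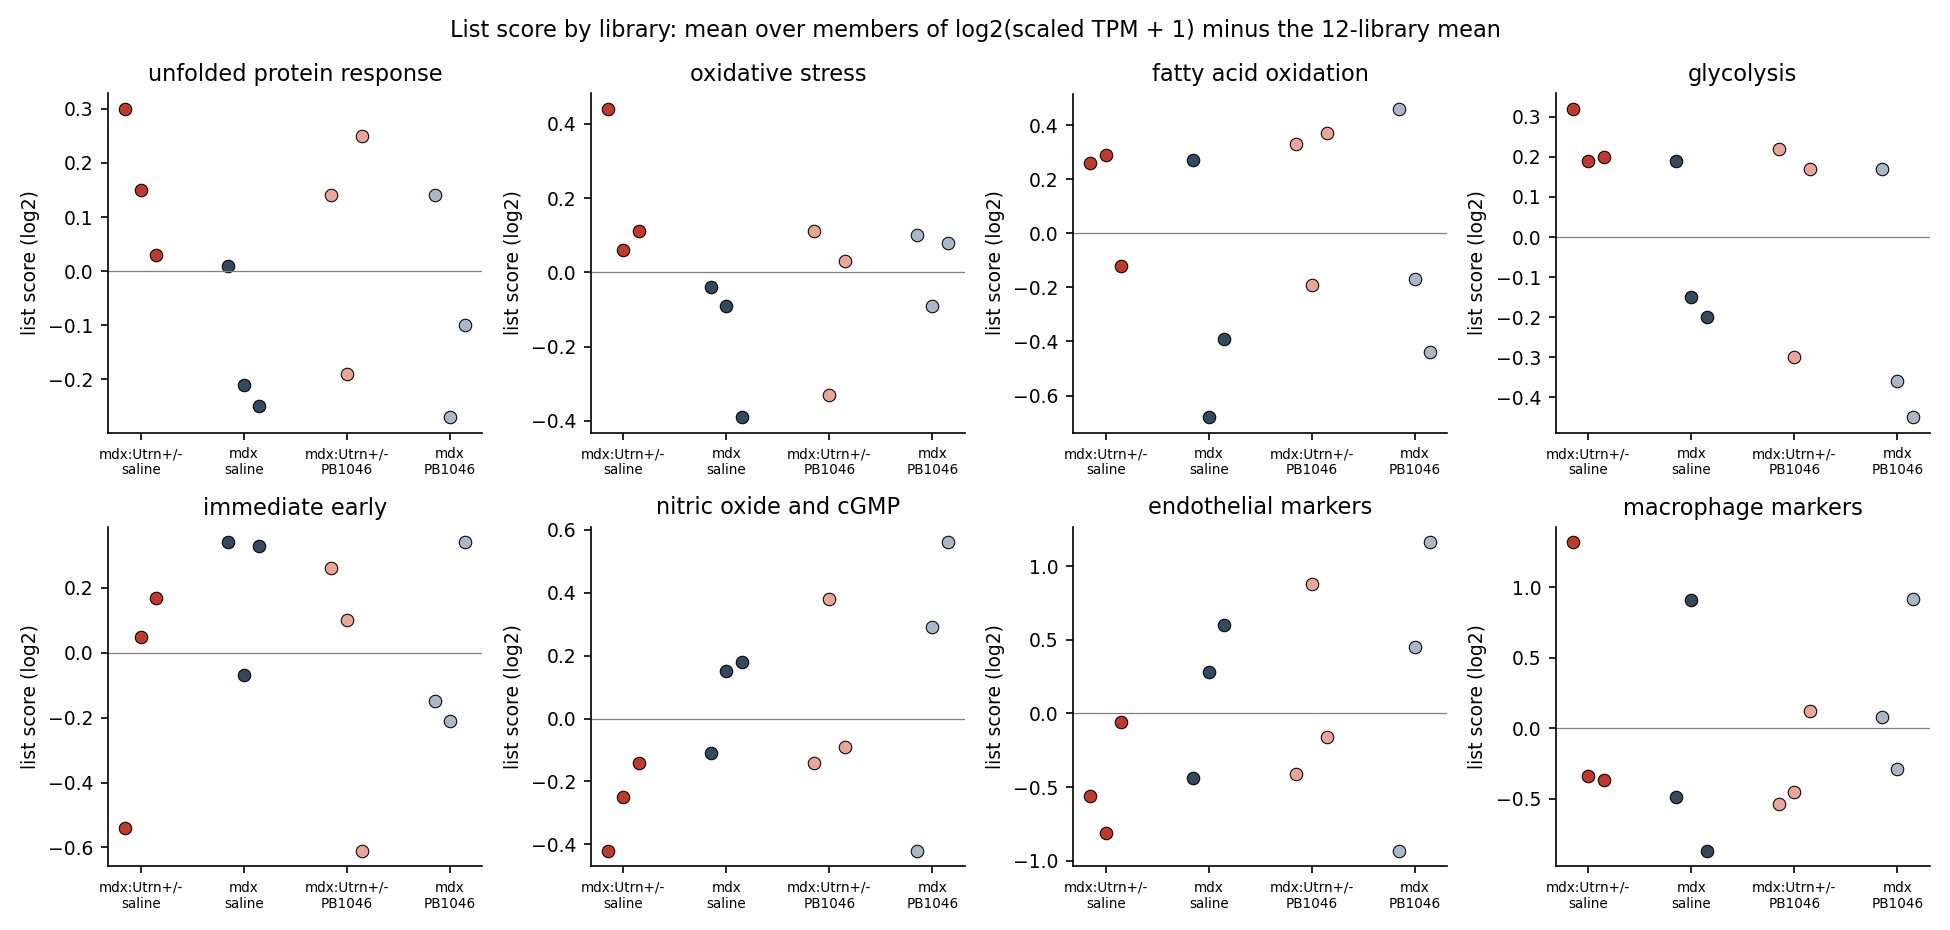
List score by library (mean over members of log2(scaled TPM + 1), each gene centred on its 12-library mean) for 8 gene lists, with a point per library and 3 libraries per group. Under saline the groups do not overlap for the unfolded protein response and oxidative stress scores, higher in mdx:Utrn+/-, nor for the nitric oxide score, which is lower. The narrowest gaps are 0.03 in mdx:Utrn+/- against 0.01 in mdx (unfolded protein response) and -0.14 against -0.11 (nitric oxide). The scores use the scaling factors, and their overlap without the factors was not tested. Scores not shown, among them those of sarcomere, atrophy and autophagy, and neutrophil genes, also do not overlap. For fatty acid oxidation and endothelial markers mdx library 1 lies among the mdx:Utrn+/- libraries.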

How the data were processed

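Per the labels' protocols, poly-A RNA of isolated cardiomyocytes with a RIN of at least 8 was sequenced with a stranded kit. The deposited values per gene and library are TPM on mm10, although the authors' table is named as raw counts: each library sums to 1000000. For each pair of groups the authors' deposited columns give, per the file headers, log2 fold change and log2 CPM, a score from a likelihood ratio test, its p-value, and the false discovery rate. The submitters' processing notes name edgeR. Aligner and counter: not given in the sources used here.

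Each library's TPM were scaled by a trimmed mean (trimming 30% by log ratio, 5% by level) and put on log2(TPM + 1), so fold changes of low genes are understated. The 12798 genes were fitted in limma 3.58.1 (R 4.3.3) with a mean per group over 12 libraries, 8 residual degrees of freedom, trend and robust moderation, and Benjamini-Hochberg adjustment over all genes at a threshold of 0.05. The step was checked on simulated data. Whole reads came back from TPM steps for 100% of genes, within 0.1 reads. Table starts are given plus 1.

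Named genes were Utrn, Dmd, the dystrophin complex, the 12 smallest p per direction (mean of at least 2 TPM, predicted genes left out) and up to 4 members of each list with the smallest p, 197 in all, of which the text takes a part. Members named only for not overlapping or for a promoter element fall outside this rule. The comparison, its members and the 43 gene lists were chosen with earlier results of these data known. Alternatives were other pseudocounts, filters, scalings and fits, leaving out each library, and, added after the data were seen, removal of trends over GC content, length and level.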

Additional observations from a re-analysis of the deposited data

How the results depend on the processing

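No gene passed the adjusted threshold under any of 19 alternatives, where the smallest adjusted p ran from 0.0609 to 0.999. Utrn kept its sign throughout, from -0.89 without scaling factors to -0.42 with the endothelial term. The count of 515 genes at unadjusted p under 0.05 was 740 without the filter on low values, 354 with the endothelial term, 389 with a term for Rn45s and 408 after removal of trends, and leaving out a library gave 182 to 1910. The count of 1227 genes without overlap was 2020 without scaling factors and 1621 to 4559 with a library left out, where fewer libraries make separation easier. The test of a difference between treatments gave 0 genes, and 0 to 1 with a library left out (Tmem181b-ps, a pseudogene, without mdx:Utrn+/- library 3). Same-numbered saline libraries of the 2 genotypes had correlations of 0.009, -0.114 and 0.209 in their deviations. These cannot show whether library numbers mark a shared batch, which was not tested. On the first principal component, library 1 lay at -27.73 (mdx:Utrn+/-) and -22.26 (mdx) under saline, and at -18.48 and -28.23 under PB1046. Low values were also seen for mdx:Utrn+/- library 2 under saline (-20.43) and mdx:Utrn+/- library 3 under PB1046 (-19.91). A fit with replicate block gave 915 genes at unadjusted p under 0.05. Dmd turned to 0.08 after removal of trends and ran from -0.40 to 0.25 with a library left out (0.25 without mdx:Utrn+/- library 1), and the cause was not tested. Dnajc3 went from 0.17 to -0.08 without scaling factors, where the median of all genes went from 0.03 to -0.20. With 3 libraries per group and 7234100 reads in the shallowest, moderate changes of single genes could be missed.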

Other observations

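Other gene lists showed medians near that of all genes or rested on single libraries. Of 26 ribosomal protein genes 13 lay above 0 in mdx:Utrn+/- against mdx, with a median log2 difference of 0.00. Clock genes had a median of -0.23, with 8 of 19 above 0. It was 0.01 without mdx:Utrn+/- library 1 and -0.46 without scaling factors. Cell cycle genes had a median of -0.08 with 6 of 19 above 0 (-0.26 without scaling factors). Genes of the vasoactive intestinal peptide system had a median of -0.25 over 5 tested genes. Among them Adcyap1r1, a receptor of the family, had 7.14, 9.22 and 0.991 scaled TPM in mdx:Utrn+/- and 1.07, 2.85 and 2.49 in mdx, with overlap. Calcrl, a receptor of the calcitonin gene family, had 3.21, 4.40 and 11.6 in mdx:Utrn+/- and 8.62, 10.6 and 17.2 in mdx, also with overlap.

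Of 26 costamere and adhesion genes 17 lay above 0, with a median of 0.13 (-0.12 without scaling factors and 0.05 with the endothelial score as a term). The laminin receptor subunit Itga6 had 8.35, 8.27 and 13.8 scaled TPM in mdx:Utrn+/-, against 15.6, 19.0 and 29.2 in mdx, without overlap. Of 19 membrane repair genes 13 lay above 0, with a median of 0.10 (-0.16 without scaling factors and -0.09 after removal of trends over GC content, length and level). Dysf, whose product dysferlin patches torn membrane, had 16.1, 23.4 and 24.8 in mdx:Utrn+/-, against 29.0, 26.2 and 27.2 in mdx, without overlap, and Trim72, a repair nucleator, had 466, 422 and 208 against 315, 179 and 177.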
